A study of Mus musculus with 2 samples.

Results

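Myofibroblast-leaning fibroblasts are the collagen-making cells of the implanted mouse pancreatic tumours in which the contractile and matricellular genes Acta2, Tagln and Postn outweighed the adventitial genes Clec3b, Dpt and Pi16. They were 69 of the 22472 kept cells of the series, 38 of 11664 in the control library and 31 of 10808 in the knockout library. The cells were chosen by raw counts of unique molecular identifiers (UMIs, each 1 captured transcript). Barcodes were kept from 500 detected genes upward when no more than 15% of their UMIs were mitochondrial. A gated fibroblast then had at least 20 UMIs of Col1a1, Col1a2 and Col3a1, at least 3 of Pdgfra and Dcn, none of Ptprc or Pecam1, at most 2 of Rgs5, fewer than 3 of Upk3b, Lrrn4 and Wt1, and at most 20 of Krt8, Krt18 and Krt19. Of the gated fibroblasts, those with more Acta2, Tagln and Postn UMIs than Clec3b, Dpt and Pi16 UMIs were taken. Those with fewer are called adventitial-leaning here, and they were 295 control and 468 knockout cells. Another 16 control and 9 knockout cells were tied.

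Droplet single-cell RNA-seq was run on pancreatic tumours grown for 21 days from KPC cells, a mouse pancreatic cancer line, placed orthotopically. The control library came from Porcnfl/fl littermates, labelled WT, and the knockout library from Csf1r-Cre;Porcnfl/fl mice. Both groups carry the floxed Porcn allele, and the knockout adds Cre under the Csf1r promoter, which acts in myeloid cells. Porcn encodes the acyltransferase that Wnt ligands need for secretion, so the fibroblasts are not the cells in which the deletion was aimed. Each library pooled the tumours of 5 mice and was not replicated, so no test between genotypes was possible. All intervals are exact 95% counting intervals and leave out any variation among animals.

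Fibroblasts of pancreatic tumours are commonly described as contractile myofibroblasts, inflammatory fibroblasts that secrete cytokines, and antigen-presenting fibroblasts with MHC class II genes. Myofibroblasts are known for smooth muscle actin stress fibres and for laying down fibrillar collagen, and transforming growth factor beta is their classic inducer. Adventitial fibroblasts, marked by Pi16 and Dpt, line vessels and are regarded as a resting reservoir.

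The 2 libraries held 173934025 and 137527647 UMIs over 13766 and 12251 barcodes, control first here and in every pair of values below. The chosen cells had a median of 15761 and 11041 UMIs, against 8940 and 8621 in adventitial-leaning cells. Since the rule compares absolute counts, depth and membership are linked. The libraries shared 46 barcode sequences, none of them among the chosen cells. Porcn itself was thin in Ptprc-positive cells, with 9 UMIs (1.84 counts per 1000000 UMIs, CPM) and 14 UMIs (0.806 CPM), and the counts do not show which part of the gene was read. In the chosen cells it had 8 and 7 UMIs.

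The sequences shown first are the stretches before the start sites of Acta2, smooth muscle actin, and of Myl9, the regulatory light chain of smooth muscle myosin, since the contractile side of the rule rests on genes of this kind. Serum response factor binds the CArG box, a 10-base element with 6 inner bases of A or T, in front of many contractile genes. Capitals mark each match to that element on the printed strand with at most 1 inner base off; the element reads alike on both strands. Sequences and starts are from RefSeq on GRCm38.p6, 250 bases each, 5′ to 3′ on the gene's strand, at chr19:34255374-34255623 (minus strand) and chr2:156775214-156775463 (plus strand).
Acta2: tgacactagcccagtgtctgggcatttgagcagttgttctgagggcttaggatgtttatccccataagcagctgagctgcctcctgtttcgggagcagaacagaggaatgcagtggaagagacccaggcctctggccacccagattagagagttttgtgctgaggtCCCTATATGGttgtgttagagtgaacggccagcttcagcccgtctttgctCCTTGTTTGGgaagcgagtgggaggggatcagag
Myl9: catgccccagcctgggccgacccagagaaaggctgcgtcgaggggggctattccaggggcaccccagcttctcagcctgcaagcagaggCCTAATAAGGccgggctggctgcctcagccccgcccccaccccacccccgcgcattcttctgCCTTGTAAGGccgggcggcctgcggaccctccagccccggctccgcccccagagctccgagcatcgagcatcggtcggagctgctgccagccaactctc
The Acta2 boxes began 84 and 34 bases before the RefSeq start and neither was exact. The GENCODE span of Acta2 given below reaches 34255590, so both boxes lie inside that span. The Myl9 boxes began 161 and 99 bases before it and 1 was exact. The table held 18 promoters for 16 of the 18 contractile genes searched, Acta2 among them and Tagln not. Of these 18 promoters, 5 held such a box (27.8%), against 9.98% of all 32851 promoters, in windows of 250 bases before to 50 after the start. A match is a string of letters, not a bound site. Myl9 had 19 UMIs (30.2 CPM) and 14 UMIs (35.1 CPM) in the chosen cells.

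Acta2 (chromosome 19, 34241090 to 34255590 on GRCm38, as are all gene positions here) was found in 26 of 38 control and 12 of 31 knockout cells, with medians of 2 and 0 UMIs and highest cells of 55 and 43. Tagln, the actin-binding protein transgelin (chromosome 9, 45929619 to 45936058), was in 17 and 15 cells, with medians of 0 and 0 and highest cells of 61 and 165. Postn, the secreted matrix protein periostin (chromosome 3, 54361109 to 54391037), was in 24 and 27 cells, with medians of 13.5 and 10 and highest cells of 362 and 112. Few cells thus carried the whole signature: all 3 genes were seen in 6 control and 9 knockout cells, and Acta2 and Tagln were both at 0 in 9 and 14. The label myofibroblast therefore holds for part of the cells only, and the name is used here for the rule.

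Summed over the cells, Acta2 stood at 415 CPM (366 to 469) and 276 CPM (227 to 333), and Postn at 3126 CPM (2989 to 3267) and 1252 CPM (1145 to 1367). Tagln was at 396 CPM (348 to 448) and 710 CPM (630 to 798), where 58.3% of the knockout UMIs lay in 1 cell. Col1a1, the main fibrillar collagen chain, was at 15120 and 6416 CPM, and Pdgfra, the fibroblast receptor for platelet-derived growth factor, at 247 and 218 CPM. These genes chose the cells, so their levels describe the choice. After thinning to 2000 UMIs per cell, Acta2 was seen in 37.8% and 19.4% of the chosen cells and in 0.234% and 0.317% of keratin-high cells, a contrast that the choice also fixes.

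**Figure D1:**
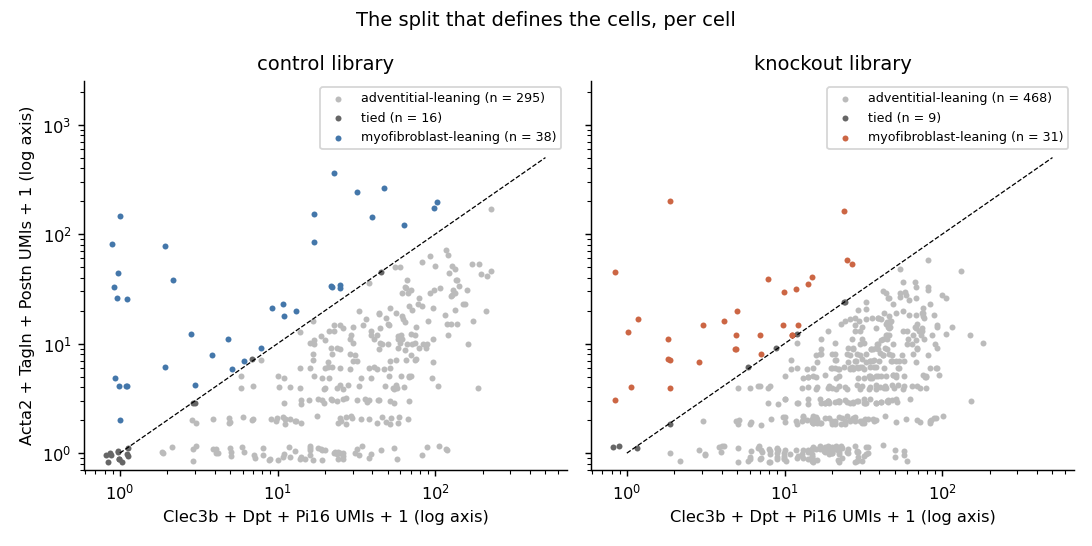
Each point is a gated fibroblast, with Clec3b, Dpt and Pi16 UMIs plus 1 on the x axis and Acta2, Tagln and Postn UMIs plus 1 on the y axis, both log axes with a small random jitter. The dashed line marks equal sums; coloured points above it are the 38 control and 31 knockout cells chosen, grey points the rest.

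The excess of Acta2, Tagln and Postn UMIs over the adventitial sum ran from 1 to 340 in control cells, with a median of 12, and from 1 to 199 in knockout cells, with a median of 9. It was 1 to 5 UMIs in 11 and 14 cells and over 20 in 17 and 8. Just inside the line, 5 cells in each library had an excess of 1 or 2. Just outside it, 15 control and 9 knockout cells fell short by 1 or 2 UMIs.

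Of the gated fibroblasts, the rule chose 38 of 349 in the control library, which is 10.9% (7.82 to 14.6). It chose 31 of 508 in the knockout library, which is 6.10% (4.18 to 8.55). The knockout share was 0.561 times the control share (0.337 to 0.925). As shares of all kept cells, 0.326% and 0.287%, the libraries lay closer, with a ratio of 0.880 (0.530 to 1.45). Leaving out the cells with at least 2 Slpi UMIs, described next, took away 42 of 349 gated control and 1 of 508 gated knockout cells. That removal falls almost entirely on the control library, so it does not show what the gap rests on. Then the shares were 21 of 307 (6.84%, 4.28 to 10.3) and 31 of 507 (6.11%, 4.19 to 8.57), a ratio of 0.894 (0.498 to 1.64).

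Slpi, a secreted leukocyte protease inhibitor, split the control cells. With at least 2 Slpi UMIs there were 17 of the 38 in the control library, which is 44.7% (28.6 to 61.7). In the knockout library there were 0 of 31, which allows up to 11.2%. In the 17 cells Slpi ran from 2 to 183 UMIs with a median of 24. Among the other 21 control cells 2 had 1 UMI, and in the knockout cells 1 had 1 UMI. The groups of 17 and 31 cells did not overlap, which the limit of 2 UMIs, set after these values were seen, fixes for Slpi itself.

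The 17 cells went against the label for Postn. It was at 0 in 12 of them and summed to 361 CPM, against 6292 CPM in the other 21 control cells. Acta2 was present in 16 of the 17, at 450 CPM against 375 CPM. The 12 cells with Postn at 0 needed Acta2 or Tagln UMIs to be chosen, so the rule fixes part of this presence. Lrrc15, a membrane protein marking activated tumour myofibroblasts, was at 38.7 and 218 CPM, and the protease Fap at 23.8 and 150 CPM. Saa3, an acute-phase serum amyloid, was seen in 16 of the 17 at 10530 CPM, against 3 of the 21 at 355 CPM. Of the 3533 Saa3 UMIs in the 17 cells, 1265 lay in 1 cell. Timp1, an inhibitor of matrix metalloproteinases, stood at 8543 and 1375 CPM. The class II genes moved the same way, with the invariant chain Cd74 at 897 and 143 CPM and H2-Ab1 at 390 and 68.2 CPM. Cd74 was seen in 10 of the 17 and 5 of the 21 cells, and H2-Ab1 in 12 and 3. Of the 301 Cd74 UMIs in the 17 cells, 97 lay in 1 cell and 89 in another. The chemokine Cxcl12 was at 635 and 75.1 CPM. These cells are called Slpi cells below. Because Slpi itself was nearly absent from the knockout library, cells of a like kind there, if any, stay in every value given without the Slpi cells. In 1 knockout cell, singled out after its values were seen, Postn was at 0, Acta2 at 43 UMIs and Timp1 at 297 UMIs, with no Slpi or Saa3 UMI.

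Collagen-positive cells that the mesothelial step of the rule had removed carried several of the same genes. In the 208 such control cells Slpi was at 929 CPM, Saa3 at 2576 CPM, Timp1 at 2240 CPM and Postn at 247 CPM. Of the Slpi cells, 10 held 1 or 2 UMIs of Upk3b, Lrrn4 and Wt1, just inside the limit of 3, as did 3 of the other 21 control cells and 16 of the 31 knockout cells. Over 7 mesothelial genes outside the rule the Slpi cells had 21 UMIs (62.6 CPM, 38.7 to 95.7), 12 of them Nkain4. Muc16 and Krt7 were at 0 and Msln at 3 UMIs. The same 7 genes were at 230 CPM in the 208 mesothelial-marked control cells. They were at 37.5 CPM (30.9 to 45.0) in adventitial-leaning control cells and 17.1 CPM (5.54 to 39.8) in the other 21 control cells. In the 31 knockout cells they were at 50.2 CPM (30.7 to 77.5). Whether the Slpi cells belong with the mesothelial-marked cells was not tested.

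Slpi was also lower in some other cells of the knockout library. In adventitial-leaning fibroblasts it was at 361 CPM (340 to 383) and 3.56 CPM (1.99 to 5.87), and at least 2 UMIs were present in 18 of 295 and 0 of 468 cells. In mesothelial-marked cells it was at 929 and 118 CPM. In Ptprc-positive cells, which include leukocytes, it was at 811 and 672 CPM. The share of Ptprc-positive cells with a Slpi UMI was also lower, 24.1% and 9.03%. After thinning to 2000 UMIs, which left out 322 and 478 shallower cells, it was 15.6% (12.9 to 18.6) and 5.62% (4.80 to 6.54). The Ptprc-positive cells numbered 984 and 3290, and their make-up was not compared. Lower Slpi in the knockout library was thus seen in these 3 groups, but not in keratin-high cells. There the share with a Slpi UMI was 1.93% and 2.82%. After thinning it was 0.307% (0.190 to 0.469) and 0.385% (0.224 to 0.615).

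**Figure D2:**
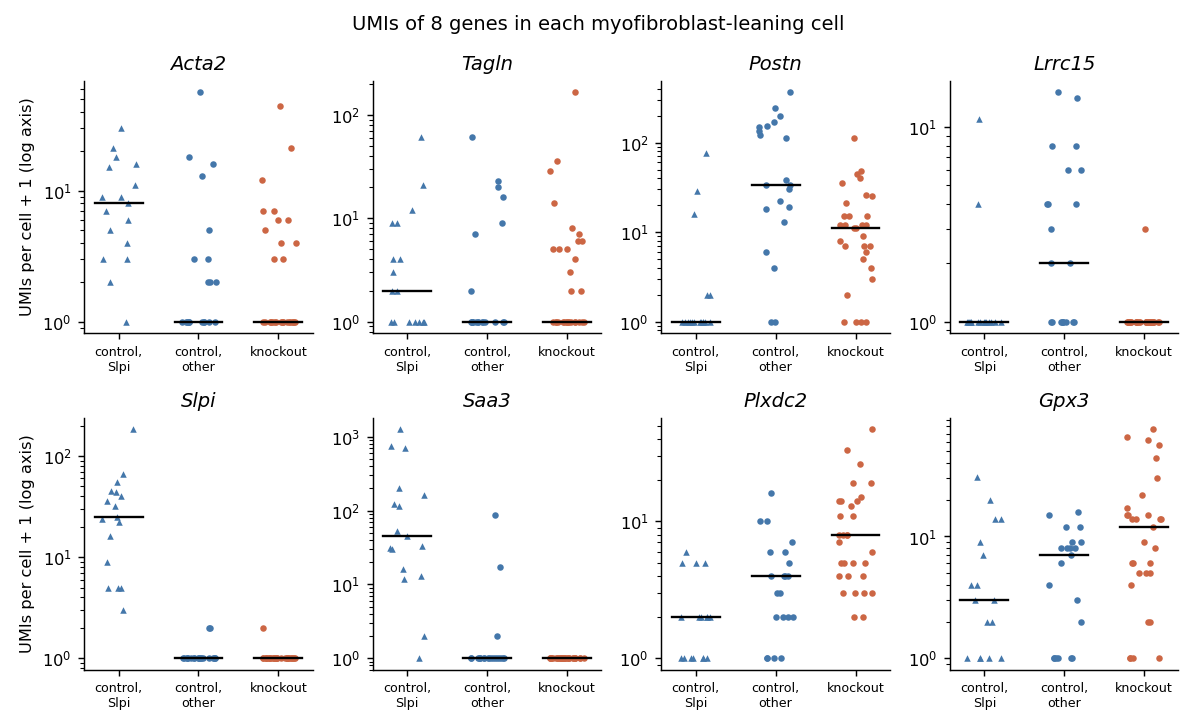
UMIs plus 1 of 8 genes in each chosen cell (log axis, with horizontal jitter), for the 17 control cells with at least 2 Slpi UMIs (triangles), the other 21 control cells and the 31 knockout cells; lines are medians. Acta2 is spread over all 3 groups, Postn is mostly at 0 in the Slpi cells, and Plxdc2 is in every knockout cell.

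The genotype comparison summed the UMIs of all chosen cells per library and read 3330 genes with at least 50 UMIs over both. Log2 ratios are knockout over control with a pseudocount of 1 UMI, and a gene counts as past 2-fold at a log2 ratio of 1 or more, or of -1 or less. Of these genes 241 were at least 2-fold higher in the knockout (7.24%) and 131 at least 2-fold lower (3.93%), with a median log2 ratio of 0.05. With the Slpi cells left out, 165 of 2294 genes were higher (7.19%) and 93 lower (4.05%). The calls only partly coincided: 112 higher genes were called in both sets, 46.5% of the first list and 67.9% of the second, and 51 lower genes, 38.9% and 54.8%.

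Of the 12 genes named as lower, 6 stayed at least 2-fold lower when all barcodes were thinned to 5000 UMIs before the rule, which also changed the cells chosen, to 67 and 35. The 6 that did not were Cthrc1 (-0.89), Twist1 (-0.61), P4ha3 (-0.59), Efemp2 (-0.70), Dusp1 (-0.11) and Cxcl12 (-0.35). Lrrc15 had the lowest log2 ratio of the 12 (chromosome 16, 30269302 to 30283256). It had 77 UMIs in 14 control cells, with a highest cell of 14, and 2 UMIs in 1 knockout cell. That is 122 CPM (96.7 to 153) and 5.02 CPM (0.608 to 18.1), a log2 ratio of -4.04 (-7.68 to -2.71). Leaving out the Slpi cells gave a log2 ratio of -4.88. Lrrc15 was low in the adventitial-leaning knockout cells as well, at 13.2 and 0.711 CPM. After thinning, 18.9% of the control cells had an Lrrc15 UMI (7.96 to 35.2), and 0 of 31 knockout cells did, which allows up to 11.2%.

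Cthrc1, a secreted protein of collagen-rich scars, was in 27 control and 12 knockout cells at 670 CPM (607 to 737) and 188 CPM (148 to 236), a log2 ratio of -1.82. Its median was 2.5 UMIs per control cell and 0 per knockout cell, and the cell ranges overlapped. P4ha3, a collagen prolyl hydroxylase, was at 89.1 and 25.1 CPM, with a log2 ratio of -1.72. Efemp2, which helps assemble elastic fibres, was at 274 and 87.8 CPM, at -1.61. Sfrp2, a secreted Wnt modulator, was at 662 and 201 CPM, at -1.71. Twist1, a mesenchymal transcription factor, was at 145 and 45.2 CPM, at -1.62. Each of these was further from 0 without the Slpi cells, between -1.80 for Efemp2 and -2.21 for Cthrc1.

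The remaining lower genes were Emb, Dusp1, Chl1, Cfb, Sod2 and Cxcl12. Emb, a membrane glycoprotein, was at 95.4 and 15.1 CPM, and the phosphatase gene Dusp1, an early response gene, at 97.0 and 20.1 CPM. Chl1, a cell adhesion molecule, was at 585 and 150 CPM, and Cfb, complement factor B, at 237 and 60.2 CPM. Their log2 ratios lay between -1.93 for Cfb and -2.47 for Emb. For Sod2, the mitochondrial superoxide dismutase, the log2 ratio was -1.88, and -0.85 without the Slpi cells. For Cxcl12 it was -1.64, and 0.62 without them.

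The 12 genes named as higher in the knockout were led by Pknox2, a homeobox transcription factor (chromosome 9, 36890982 to 37147407). It had 13 UMIs in 6 control cells and 67 UMIs in 17 knockout cells, at 20.7 and 168 CPM, a log2 ratio of 2.94. Sparcl1, a matricellular relative of SPARC, was in 7 and 14 cells at 41.4 and 276 CPM, with a log2 ratio of 2.70. Plxdc2, a transmembrane protein, was in 27 of 38 control cells and in all 31 knockout cells, with medians of 1 and 7 UMIs, at 153 CPM (124 to 187) and 748 CPM (665 to 838). Its log2 ratio was 2.28, and 1.57 without the Slpi cells.

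Gpx3, a secreted glutathione peroxidase, had medians of 3 and 11 UMIs and stood at 339 and 1297 CPM, a log2 ratio of 1.93. C1qtnf7, a C1q-related secreted protein, was at 52.5 and 283 CPM, at 2.40. Dkk3, a member of the dickkopf family, was at 55.7 and 206 CPM, at 1.86. The signalling genes Ksr1 and Gab2, a scaffold of the MAP kinase cascade and a docking adaptor, had log2 ratios of 2.56 and 2.25. Fam20a, Thsd7a, Pltp and Nhs made up the rest, between 1.83 for Nhs and 2.07 for Fam20a. All 12 stayed at least 2-fold higher without the Slpi cells, and 11 did with barcodes thinned to 5000 UMIs, where Thsd7a was at 0.61.

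**Figure D3:**
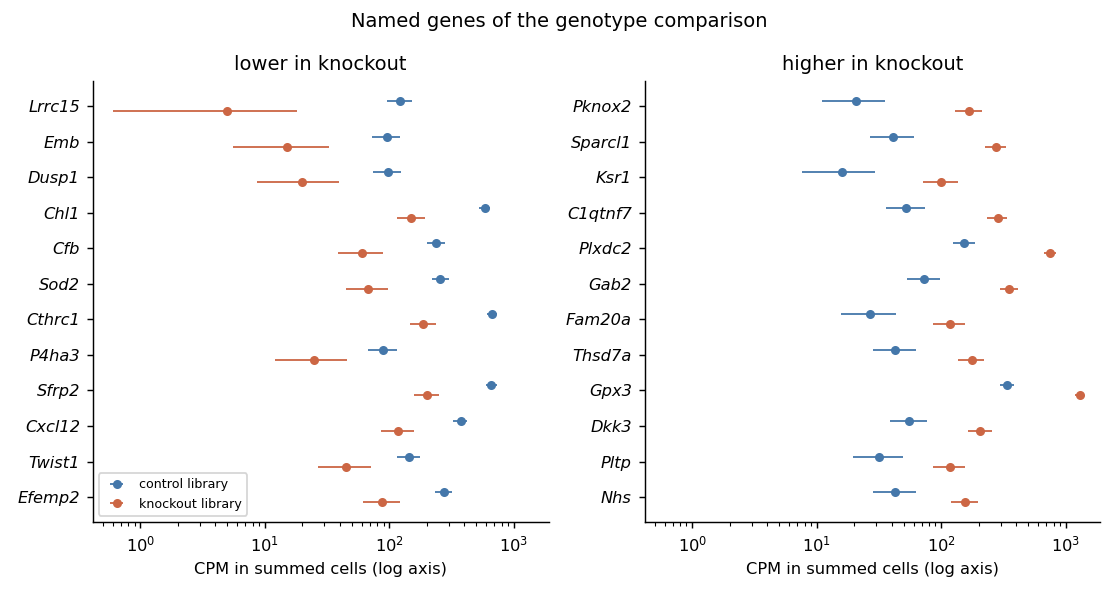
Level of each named gene in CPM over the summed cells (log axis), with exact 95% counting intervals, for the control (blue) and knockout (orange) library. The intervals of the 2 libraries do not touch for any of the 24 genes, which the choice of the largest ratios fixes.

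Most of the named genes had the same sign of change in the other fibroblasts. In adventitial-leaning cells, a separate set of cells from the same 2 pools, 11 of the 12 lower genes were below 0 and 4 were at least 2-fold lower, namely Lrrc15 (-3.83), Cthrc1 (-1.57), Twist1 (-1.35) and Emb (-1.19). All 12 higher genes were above 0 and 5 were at least 2-fold higher, among them Thsd7a (1.34) and Sparcl1 (1.16). The share of all genes past 2-fold by genotype in adventitial-leaning cells is not given here. Whether these counts exceed that share is therefore not known. Cfb, at 490 and 502 CPM there, had a log2 ratio of 0.04. Col1a1 was at -1.24 in the chosen cells and at -1.32 in the adventitial-leaning cells. The collagen step of the rule used it to choose both sets, so these 2 values also describe the choice. Both sets come from the same tumour pools, so they do not replicate each other, and the difference between the sets was not tested.

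The myofibroblast matrix list held 21 genes, of which 18 were read. Its median log2 ratio was -0.28, against 0.05 for all genes read, with 3 genes at least 2-fold higher and 5 lower. The median turned to 0.44 with barcodes thinned to 5000 UMIs. Beside Lrrc15 and Cthrc1, Aspn, a small leucine-rich proteoglycan, was at 824 and 321 CPM (-1.35), Inhba, an activin subunit, at 226 and 97.8 CPM (-1.18), and Tgfbi, an adhesive matrix protein, at 180 and 80.3 CPM (-1.13). Spon2, Ltbp2 and Col11a1 were the 3 higher, at 2.01, 1.21 and 1.21. Several of these rested on single cells. In 1 cell lay 46.5% of the control UMIs of Aspn and 59.4% of the knockout UMIs of Spon2. Of Inhba, 73.9% of the control UMIs lay in 1 Slpi cell, and its log2 ratio was 1.71 without the Slpi cells. Tnc, the matrix protein tenascin C, was at 859 and 677 CPM with 185 of its 270 knockout UMIs in 1 cell.

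The contractile list stayed close to the middle. Of 16 genes, 12 were read and 0 were past 2-fold, with a median of 0.14. Cald1, caldesmon, was at 1403 and 1530 CPM, Myl6, a myosin light chain, at 1452 and 1197 CPM, and Tpm2, a tropomyosin, at 415 and 334 CPM. The 12 log2 ratios ran from -0.63 for Tagln2 to 0.72 for Tpm1.

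Among other collagens, 17 of 19 genes were read, with a median of -0.07, 5 at least 2-fold higher and 0 lower. The basement membrane chains Col4a1 (1.23) and Col4a2 (1.36) and Col15a1 (1.33) were higher, and the fibrillar chain Col5a1, in all 38 and all 31 cells, was at 1268 and 788 CPM (-0.68). Leaving out the Slpi cells put the median at -0.38, with 4 higher and 3 lower. Of the 16 collagen processing genes, all were read, 0 were at least 2-fold higher and 2 lower, P4ha3 and P3h1 (-1.09), with a median of -0.30. Serpinh1, the collagen chaperone, was at 1742 and 1154 CPM.

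The inflammatory list changed sign when the Slpi cells were left out, a removal from the control library alone. With them its median over 14 of 20 genes was -0.64, with 1 higher and 5 lower, and without them 0.20 over 12 genes, with 2 higher and 4 lower. Saa3 had 3637 UMIs in 19 control cells and 0 in the knockout, at least 769-fold lower against a floor of 3 counts over the group. Of the 3637 UMIs, 1265 lay in 1 cell. The chemokines Ccl7 (514 and 118 CPM) and Ccl11 (186 and 62.7 CPM) were lower, and Cxcl14 (124 and 529 CPM) higher, each with 30.8% or more of the higher library's UMIs in 1 cell. Complement C3, at 1322 and 2168 CPM, had a log2 ratio of 0.71, and 1.63 without the Slpi cells.

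The antigen-presenting list showed the widest gap. All 5 of the 8 genes that could be read were at least 2-fold lower in the knockout, with a median of -3.33. Apart from Slpi these were the class II genes H2-Aa, H2-Ab1, H2-Eb1 and Cd74, between -2.68 and -3.60. Only Slpi passed the free RNA rule, a level at least 2 times that of the library's other kept cells. Without the Slpi cells 1 gene was left to read, and Cd74 stood at 143 and 42.7 CPM. In Ptprc-positive cells Cd74 was at 4641 and 4054 CPM.

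The adventitial list had a median of -0.06 over 12 genes, with 3 higher and 3 lower, and of -0.64 without the Slpi cells, with 1 higher and 5 lower. Among matrix proteases, the stromelysin Mmp3 was at 367 and 32.6 CPM (-3.39), and -3.81 without the Slpi cells. Mmp3 did not qualify as a named gene, because over 25% of its control UMIs lay in 1 cell. Timp1 was at 5201 and 1149 CPM (-2.18), and at -0.26 without them. Both Timp1 values rest partly on single cells. In 1 knockout cell lay 297 of the knockout Timp1 UMIs, and in 1 Slpi cell 1289 of the 2867 in the Slpi cells. In adventitial-leaning cells the Timp1 log2 ratio was -1.18. Of transforming growth factor beta genes, 11 of 16 were read with a median of 0.36, which turned to -0.14 over cells with a margin of at least 5 UMIs. In all the chosen cells, the receptor Tgfbr1 (1.31) and the ligand Tgfb3 (1.19) were at least 2-fold higher and Inhba lower. Pmepa1, a target that restrains the pathway, was at 980 and 876 CPM.

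**Figure D4:**
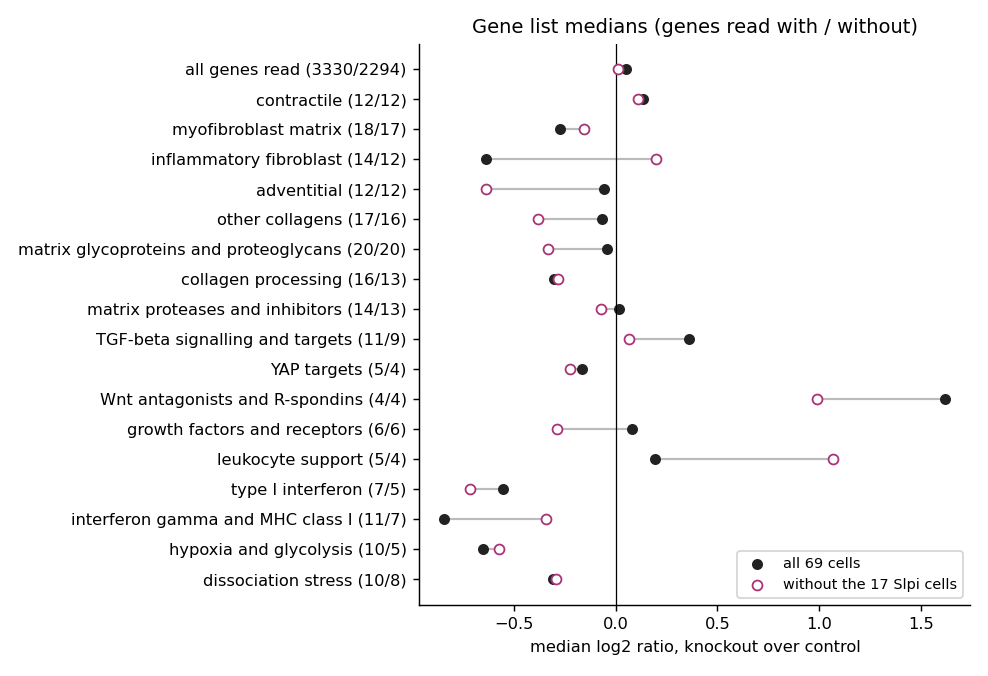
Median log2 ratio of knockout over control for each gene list with at least 3 genes read, over all 69 cells (black) and without the 17 Slpi cells (open), with the number of genes read in each. The inflammatory list crosses 0, and the contractile list stays near 0.14 and 0.11.

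Set against the adventitial-leaning cells of the same library, the chosen cells differed in the genes of their name. Across 7436 genes, 139 were at least 2-fold higher in both libraries (1.87%) and 182 at least 2-fold lower in both (2.45%). The rule split these cells by 6 of their own genes, so the values describe the split and the 6 genes are left out. Of 18 myofibroblast matrix genes read, 12 were higher in both and 0 lower, with medians of 1.69 and 1.89, against 0.04 and 0.12 over all genes read. Of 12 contractile genes 4 were higher in both, with medians of 0.94 and 1.15. Of 16 adventitial genes 11 were lower in both and 1, Col15a1, higher.

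Col12a1, a fibril-associated collagen, led the genes named by rule, at 585 against 116 CPM in control and 557 against 87.7 CPM in knockout cells. Tpm2 was at 415 against 71.7 CPM and 334 against 77.5 CPM. Ncam1, a neural cell adhesion molecule, was at 468 against 114 CPM and 748 against 138 CPM. Thbs1, thrombospondin 1, was at 189 against 57.5 CPM and 319 against 95.8 CPM. Timp3, a matrix-bound protease inhibitor, was at 1307 against 437 CPM and 1214 against 330 CPM, but 130 of its 822 control UMIs lay outside the Slpi cells. Smim3, Fibin, Spon1, Il4ra and Gpc1 were the other 5, with log2 ratios from 1.46 to 2.75. Without the Slpi cells Timp3 (log2 ratio 0.03) and Il4ra, a cytokine receptor (0.65), were no longer 2-fold higher in the control library, and the other 8 were.

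On the lower side, C7, a terminal complement component, had 0 UMIs in the chosen cells of either library and 225 and 291 UMIs in adventitial-leaning cells, at least 15.5-fold and 9.16-fold lower. Opcml, a cell adhesion molecule, was at 6.36 against 259 CPM and 2.51 against 169 CPM. Scara5, a ferritin receptor and a marker of universal fibroblasts, was at 7.95 against 190 CPM and 25.1 against 235 CPM. Efemp1, the matrix protein fibulin 3, was at 82.7 against 577 CPM and 95.3 against 667 CPM. Efhd1, Crocc2, Lvrn, Limch1, Rcan2 and Lims2 were also lower, each with at most 4 UMIs in the chosen cells of a library.

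Of 14 transforming growth factor beta genes 5 were higher in both libraries and 2 lower, the co-receptor Tgfbr3 and the latency protein Ltbp1, with 3 higher and 0 lower of 13 without the Slpi cells. Ccn2, a connective tissue growth factor, was at 197 against 51.6 CPM and 296 against 92.2 CPM, and Pmepa1 at 980 against 462 CPM and 876 against 409 CPM. The hypoxia list had medians of 1.25 and 0.50 with 3 of 11 genes higher in both, Vegfa, Slc2a1 and Pfkl. With the Slpi cells left out, the control median was 0.67 and 1 of 11 was higher in both. The dissociation stress list, early response genes that cell isolation can raise, had medians of -0.65 and -0.76, with 2 of 14 genes lower in both, and 4 of 14 without the Slpi cells. Fos was at 127 against 442 CPM and 166 against 378 CPM.

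**Figure D5:**
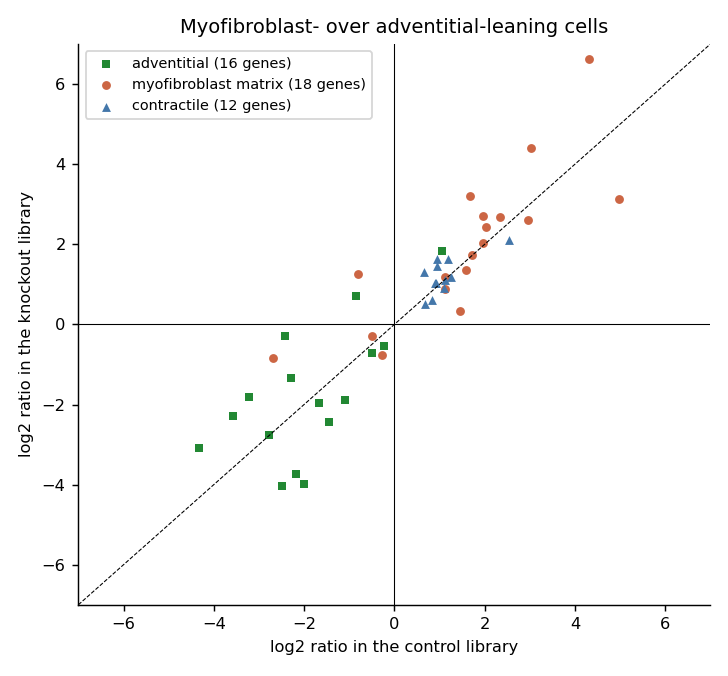
Log2 ratio of the chosen cells over adventitial-leaning cells in the control (x axis) and knockout (y axis) library, for genes of 3 lists, with the line of equal ratios dashed. Matrix genes (circles) reach 4.32 and 6.63 for Tnc, with 185 of its UMIs in the chosen knockout cells in 1 cell. Of the 16 adventitial genes (squares) 11 lie below -1 on both axes.

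The chosen cells also varied among themselves. Acta2 plus Tagln exceeded Postn in 19 of 38 control and 9 of 31 knockout cells, called contractile-led, and the other 19 and 22 were Postn-led. Of the 17 Slpi cells 15 were contractile-led, so the control contractile-led group is mostly made of them. Of 1197 genes read, 25 were at least 2-fold higher (2.09%) and 41 at least 2-fold lower (3.43%) in contractile-led cells in both libraries.

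Lower genes were led by Col14a1, a fibril-associated collagen, at 63.5 against 1511 CPM and 38.2 against 587 CPM. Itih5, a hyaluronan-binding matrix protein, was at 39.3 against 356 CPM and 53.4 against 340 CPM. Zeb1, a mesenchymal transcription factor, was at 48.4 against 299 CPM and 61.1 against 340 CPM. Igf1, insulin-like growth factor 1, was at 308 against 813 CPM and 198 against 632 CPM. Without the Slpi cells these 4 stayed at least 2-fold lower in the control library, with contractile-led UMIs of only 10, 1, 2 and 6. For each gene these UMIs lay in 1 cell. The knockout library held no Slpi cells among those chosen, so its values did not change. Of 14 other collagens 5 were lower in both, and 3 of 12 without the Slpi cells. Of 4 glycolysis genes read 3 were higher in both: Pgk1, Aldoa and Tpi1, with Tpi1 at 423 against 175 CPM and 344 against 71.0 CPM.

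Genes higher in contractile-led cells were few by the naming rule, which leaves out genes with over 25% of their UMIs in 1 cell. Palld, the actin-associated palladin, was at 610 against 426 CPM and 794 against 628 CPM, which is under 2-fold. Nxn, Parva and Cd63 were the only others, with log2 ratios of at most 0.43. The contractile list had medians of 0.50 and 0.45 with 0 of 10 genes at least 2-fold higher in both, and of 1.06 and 0.45 with 0 of 8 without the Slpi cells. Since 15 of the 19 control contractile-led cells are Slpi cells, the control value of 1.06 rests on the few others.

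Most lists of other cell types gave few UMIs in the chosen cells. Acinar genes gave 2 and 14 UMIs, 3.18 CPM (0.385 to 11.5) and 35.1 CPM (19.2 to 58.9), with Cela2a at 0 in both. Endothelial genes gave 11 and 23 UMIs, 17.5 CPM (8.73 to 31.3) and 57.7 CPM (36.6 to 86.6), 13 of the 23 from Kdr, with Cdh5, Cldn5 and Tie1 at 0 in both. Both lists were higher in the knockout cells, and their part in the genotype differences was not tested. Of 9 T and NK cell genes the cells held 1 and 3 UMIs, and of 9 epithelial genes 36 and 3 UMIs, with Lcn2 giving 22 of the 36. Over 8 macrophage genes they held 718 and 834 UMIs, of which Apoe gave 712 and 831, with C1qa, C1qc, Adgre1 and Ms4a7 at 0 in both. Over 9 pericyte and smooth muscle genes they held 43 and 44 UMIs, 22 and 33 of them Des, with Higd1b at 0 in both. Neutrophil genes summed to 17 and 104 UMIs, of which G0s2 gave 7 and 100, with 57 neutrophil-list UMIs in 1 knockout cell. B and plasma cell genes were mostly Igkc, 20 and 41 UMIs, an abundant free transcript. Scrublet called 0 control and 3 knockout members doublets, and these were kept in the values above.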

How the data were processed

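Single-cell 3′ libraries of pooled tumours were analysed, 1 per genotype. The authors deposited filtered matrices of raw UMI counts per gene and barcode, without normalisation, for 32285 genes. The file headers name Cell Ranger 8.0.0, and the submitters' processing notes name Cell Ranger 3.1.3 and mm10. The difference is unexplained in the sources used here. Gene positions are from GENCODE M21 on GRCm38, where 32158 identifiers matched.

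Cells were chosen by the rule given in the report on raw counts. The members and gene lists were chosen with earlier results of these data known. Counts were summed per library and divided by the summed total to give CPM. Sums have exact Poisson intervals, shares Clopper-Pearson intervals and ratios exact conditional intervals, all at 95%, and a count of 0 was taken to allow 3 counts. No p-value was computed, since each group is 1 pooled library. Named genes needed at least 50 UMIs, a UMI in at least 5% of cells, at most 25% of UMIs in 1 cell, and 2 times the CPM of other kept cells in the library where they were higher. Genes of the rule, mitochondrial and ribosomal genes and unnamed models were left out. The 12 highest and 12 lowest log2 ratios were taken, and 10 each way within libraries. Genes named as members of a list are its most abundant or most changed. The 22 gene lists and 11 marker lists were read without a set test. Shares of cells with a UMI were also taken after thinning to 2000 UMIs.

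Doublets were called with Scrublet through scanpy 1.11.5 at an expected rate of 8% and removed only in an alternative: it called 148 control and 341 knockout cells. Other tools were python 3.11.15, numpy 2.4.6, scipy 1.17.1, pandas 2.3.3 and matplotlib 3.10.9. The sums and the cell rule were tested on simulated data. The split at 2 Slpi UMIs was made after the data were seen.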

Additional observations from a re-analysis of the deposited data

How the results depend on the processing

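No paired analysis was possible because each group is 1 pooled library, and no replicate could be left out. The strict (at least 1000 genes, at most 10% mitochondrial) and loose (at least 200 genes, at most 25%) cell filters, the collagen limit of 50 UMIs, the keratin limit of 5 and the mean of per-cell CPM changed no share, count or list median beyond its limit. The limits were the 95% interval for shares, 1.5 times for counts and 0.5 for list medians. With every barcode thinned to 5000 UMIs before the rule, 67 control and 35 knockout cells were chosen, 15.02% of gated control fibroblasts, and 0.693% and 0.465% of kept cells. There 115 genes were higher and 82 lower by genotype, 77 and 117 against adventitial-leaning cells, and 4 and 12 in contractile-led cells. List medians were 0.28 (Wnt antagonists), 0.45 (adventitial), -2.25 (antigen-presenting), 0.62 (growth factors) and 0.44 (myofibroblast matrix), and 6 of 12 lower and 11 of 12 higher named genes stayed past 2-fold. With a margin of at least 5 UMIs the shares of gated fibroblasts were 7.74% and 4.13%, the knockout share of kept cells 0.194%, and 129 genes were higher and 121 lower (51.6% of calls higher, against 64.8%). The medians were then -0.14 (transforming growth factor beta) and -0.69 (leukocyte support). Without doublet calls 14 genes were higher in contractile-led cells, and medians were -1.42 (hypoxia) and -0.89 (leukocyte support). A minimum of 20 UMIs gave 652 higher and 292 lower genes, and 200 UMIs gave 47 and 35, with an adventitial median of 0.49. A pseudocount of 5 put the antigen-presenting median at -2.73. Without the Slpi cells, an alternative added after seeing the data, the control shares were 6.84% of gated fibroblasts and 0.180% of kept cells. The medians were 0.99 (Wnt antagonists), -0.64 (adventitial), 0.20 (inflammatory, reversed), -0.34 (interferon gamma) and 1.07 (leukocyte support), and Cxcl12 reversed to 0.62. No gene of the proliferation and Wnt target lists reached 50 UMIs, so these lists gave no median.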

Other observations

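Wnt genes, the class of ligands that Porcn acts on, could be read only in part. Wnt4 was found in 19 control and 15 knockout cells at 169 CPM and 213 CPM, with a log2 ratio of 0.34. Without the Slpi cells Wnt4 was the only ligand read, and it was then at least 2-fold higher in the knockout. Wnt5a, in 15 and 13 cells, was at 50.9 and 72.8 CPM, with 55.2% of its knockout UMIs in 1 cell. Wnt2 had 31 and 12 UMIs and Wnt9a 14 and 13, while the other 15 ligands had at most 5 UMIs in a library. Of 13 canonical target genes none reached 50 UMIs over both libraries: Axin2 had 12 and 6, Nkd1 26 and 13, Lgr5 22 and 1, and Nkd2 11 and 36. Among secreted antagonists Sfrp1 was at 231 and 893 CPM (log2 ratio 1.95) and Sfrp4 at 102 and 266 CPM (1.38), opposite in sign to Sfrp2. Sfrp1 did not qualify as a named gene, because over 25% of its knockout UMIs lay in 1 cell.

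The interferon lists were lower in the knockout cells, with medians of -0.55 over 7 type I genes and -0.84 over 11 interferon gamma and MHC class I genes, 2 and 5 of them at least 2-fold lower. With the Slpi cells left out these were 1 of 5 and 1 of 7, with medians of -0.71 and -0.34. Of these only Cxcl9, at 813 and 178 CPM, passed the free RNA rule, and 46.6% of its control UMIs lay in 1 cell. The hypoxia and glycolysis list had a median of -0.65 over 10 genes, with Ldha at 409 and 183 CPM and Pgk1 at 320 and 148 CPM. Each of the 10 fell short of the free RNA rule.

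Single cells carried some of the highest values. Cxcl13, a B-cell chemokine, had 855 UMIs in the knockout cells, all in 1 cell, and 101 in 2 control cells. Proliferation genes were near 0, with Mki67 at 4 and 0 UMIs and Top2a at 5 and 0.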
